A study of Mus musculus with 12 samples.

Results

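Palbociclib was added to PD-1 blockade in 3 of the 12 tumors of this experiment, and the 3 tumors that received anti-PD-1 antibody alone served as the reference. These 6 tumors were chosen by their treatment labels, and 11105 of the 34678 gene symbols in the files had a mean of at least 1 FPKM over them and were tested. FPKM are fragments per kilobase of gene, scaled to the mapped fragments of the library. All 12 tumors grew subcutaneously in C57BL/6 mice of both sexes, 6 to 8 weeks of age at the start, from LLC1-shLkb1 cells, a mouse Lewis lung carcinoma line in which a short hairpin RNA knocks down Lkb1 (gene symbol Stk11). The combination arm received palbociclib by mouth (100 mg/kg, on the first days of each weekly cycle) and anti-PD-1 antibody into the peritoneum (200 µg per mouse), whereas the anti-PD-1 arm received the antibody alone. The palbociclib arm received the inhibitor alone and the vehicle arm control immunoglobulin, with 3 tumors in each, and every tumor was taken after 2 weeks of treatment. Since all 4 arms carry the same knockdown, Stk11 is no check of the labels. It was at 8.60, 11.4 and 10.3 FPKM with the combination and at 9.28, 10.7 and 7.90 with anti-PD-1. The model is 1 cell line that grows under the skin and not in the lung.

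Palbociclib inhibits CDK4 and CDK6, the kinases that phosphorylate RB and thereby release E2F transcription factors at the entry into S phase. PD-1 is an inhibitory receptor of activated T cells, and its blockade lets T cells act for longer on cells that show them antigen. Such T cells secrete interferon gamma, which induces MHC molecules, guanylate-binding proteins (GBPs) and T cell attracting chemokines in tumor cells and macrophages. Type I interferons induce a partly overlapping set of antiviral genes through a related pathway.

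The files hold FPKM and no counts. Fragments per tumor, estimated from the steps between low FPKM values, ran from 16000000 to 19100000 in the 6 tumors, so that 1 FPKM is worth about 16 to 19.1 fragments per kilobase. Fat and muscle genes stood out in single tumors. Summed over 14 adipocyte genes, combination replicates 1, 2 and 3 held 1312, 28.7 and 4.79 FPKM against 5.85, 2.29 and 6.55 in the anti-PD-1 tumors. Summed over 19 skeletal muscle genes, the combination tumors held 39.3, 253 and 45.7 FPKM against 58.0, 39.3 and 37.9. Anti-PD-1 replicate 1 stood apart from replicates 2 and 3, with correlations across genes of 0.946 and 0.948 to them, whereas replicates 2 and 3 correlated at 0.986. Combination replicate 1 likewise stood apart, at 0.941 and 0.946 to its own arm, where replicates 2 and 3 correlated at 0.963. Of 8 epithelial markers of carcinoma cells, only Krt8 and Krt18 reached the filter, and Epcam was at no more than 1.38 FPKM in these tumors.

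The first question was which genes differ when palbociclib is added. Of the 11105 genes, 1 (0.009%) passed an adjusted p of 0.05 (limma, p-values corrected after Benjamini and Hochberg), and it was lower with the combination. This gene, Ccdc127 (chromosome 13, 74350309 to 74365783, GRCm38), encodes a coiled-coil protein. It fell from 6.50, 5.96 and 6.50 FPKM with anti-PD-1 to 2.95, 2.54 and 2.71 with the combination, a difference of -1.18 on the log2 scale (SE 0.10, limma adjusted p = 0.00258). All 3 combination tumors lay far under the other 9, since palbociclib alone gave 7.04, 6.30 and 6.29 FPKM and vehicle 7.21, 6.07 and 5.95. In a fit of only the 6 tumors compared, the difference was the same and the adjusted p was 0.136.

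No other gene passed, and the smallest adjusted p among them was 0.285 (limma, Gm4841). At an unadjusted p under 0.05, 1421 genes differed (12.8%), of which 948 (8.54% of those tested) were higher and 473 (4.26%) lower with the combination. The results that follow are therefore levels per tumor and counts of genes whose tumors do not overlap, meaning that all 3 combination tumors lay on the same side of all 3 anti-PD-1 tumors. Over all genes tested, 1433 (12.9%) were higher without overlap and 871 (7.84%) were lower without overlap, and these shares are the background for each count. When 1 of the 6 tumors is left out, 2 tumors are set against 3 and genes are separate more often, 15.6% to 29.3% on the higher side and 9.68% to 18.0% on the lower side, so that counts from such settings are read against these shares. Where an SE is given it is that of a log2 difference from limma. A higher or lower mean is that of log2(FPKM + 0.1) unless a mean FPKM is named. With 3 tumors against 3, an exact permutation test cannot give a p under 0.1.

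**Figure D1:**
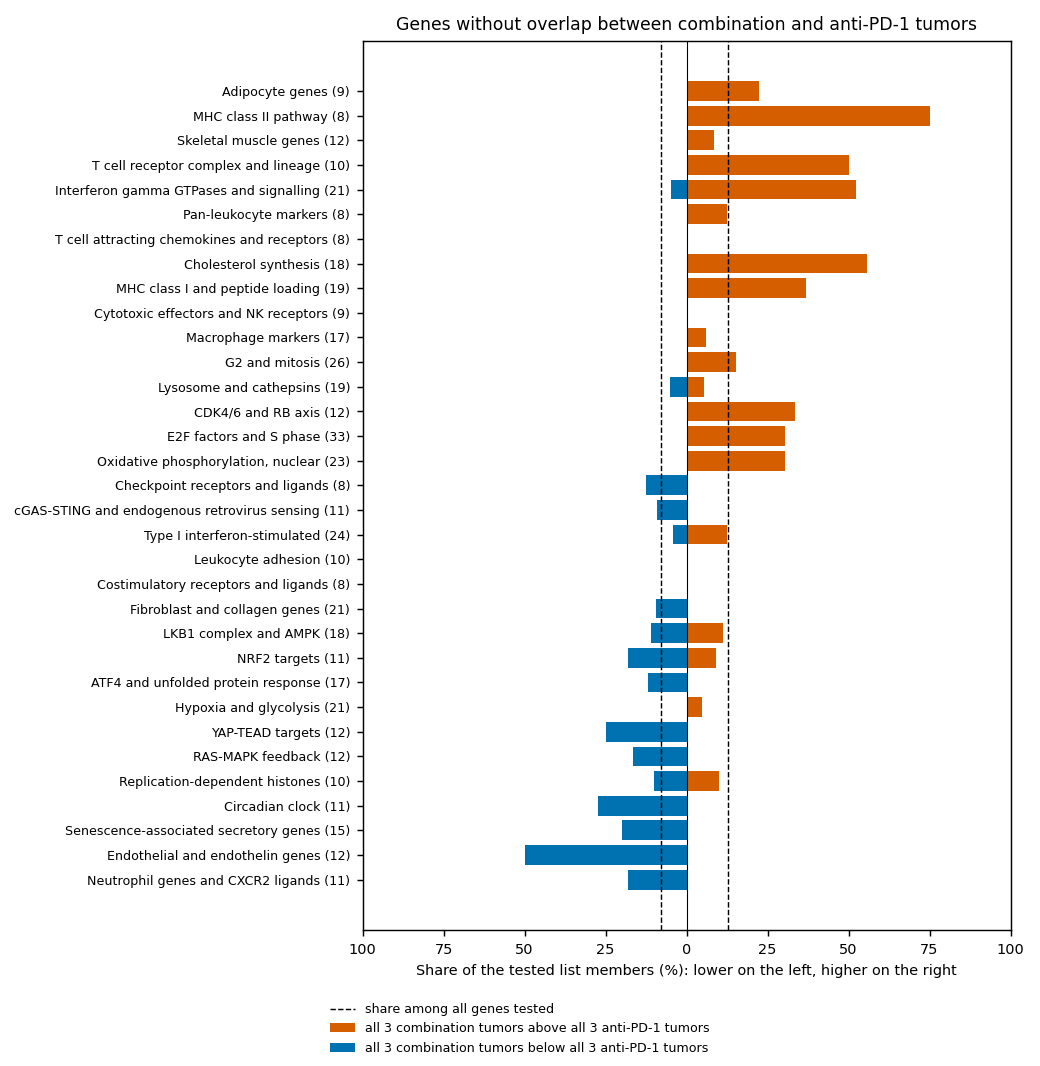
Share of the tested members of each gene list (%, number tested in brackets) for which all 3 combination tumors lay above (right) or below (left) all 3 anti-PD-1 tumors, for the 33 lists with at least 8 genes tested, ordered by their median difference. Dashed lines mark the shares over all genes, 12.9% and 7.84%, and the MHC class II, cholesterol synthesis and interferon gamma lists reach farthest to the right, the endothelial list farthest to the left. In the T cell, adipocyte and muscle bars, 5 of 10, 7 of 9 and 10 of 12 genes averaged under 1 FPKM with anti-PD-1. These genes were tested only because of their level with the combination, and over all 20 T cell genes the share was 35.0%.

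Genes of the MHC class II pathway, which present antigen to CD4 T cells, had the largest differences of the immune lists. All 8 members tested, of 14 listed, had a higher mean with the combination, 6 of 8 without overlap, and their median difference was 2.72 on the log2 scale against 0.05 over all genes. H2-Aa (chromosome 17, 34282744 to 34287823), the alpha chain of the I-A molecule, was at 164, 13.1 and 107 FPKM with the combination and at 9.60, 3.32 and 2.99 with anti-PD-1. Its log2 difference was 3.71 (SE 1.06). Combination replicate 2 lay close to the highest anti-PD-1 tumor, and the other 2 were far above both. H2-Eb1, the I-E beta chain, was at 301, 19.3 and 205 FPKM against 16.99, 6.83 and 6.15. Cd74, the invariant chain that guides class II molecules to the endosome, was at 296, 32.2 and 289 FPKM against 29.5, 9.64 and 9.92. H2-DMa, which helps to load peptide, was at 18.9, 4.28 and 12.5 FPKM against 4.05, 1.72 and 1.49. The same step in level, with replicate 2 the lowest of its arm, thus recurred in each chain. The members with overlap were Ctss (log2 difference 1.44, SE 0.64) and Ifi30 (0.90, SE 0.40), both enzymes of the endosome. Ciita, the master regulator of the class II genes, was under the filter, at 2.85, 0.377 and 1.93 FPKM with the combination and 0.477, 0.163 and 0.134 with anti-PD-1.

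Promoter sequence of the class II genes is shown because the family is known to be switched on together through short shared elements. Of the 6 tested members with a RefSeq promoter, 4 hold a CCAAT box (letters CCAAT, searched on both strands in the 250 bases before the start) against 37.5% of 27025 genes, so that the motif is common anyway. The 110 bases before the start are printed 5′ to 3′ on the gene's strand with the box in capitals, at chr17:34287824-34287933 (minus strand) for H2-Aa and chr17:34305757-34305866 (plus strand) for H2-Eb1 (GRCm38.p6).
H2-Aa: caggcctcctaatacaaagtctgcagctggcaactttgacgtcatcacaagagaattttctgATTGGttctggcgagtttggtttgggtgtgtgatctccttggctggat
H2-Eb1: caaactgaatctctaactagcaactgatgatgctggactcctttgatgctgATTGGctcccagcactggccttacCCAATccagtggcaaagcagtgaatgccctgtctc

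MHC class I genes, which present peptide to CD8 T cells, were also higher on average, all 19 of 19 by mean, with a median of 0.65. Of these, 7 did not overlap: B2m, Tap1, Tap2, Tapbp, Psmb9, Psmb10 and Psme2. Psmb9 (chromosome 17, 34181987 to 34187764), a subunit of the immunoproteasome, was at 7.05, 3.88 and 7.12 FPKM with the combination and 3.39, 1.71 and 2.63 with anti-PD-1, a log2 difference of 1.19 (SE 0.28). Tap1, a chain of the peptide transporter, was at 13.2, 7.04 and 12.8 FPKM against 6.57, 5.31 and 6.50. Tapbp, which bridges the transporter and class I, was at 84.5, 68.0 and 95.6 FPKM against 46.0, 56.3 and 51.0. The other 12 members overlapped, among them the classical heavy chain H2-K1, at 133, 64.6 and 117 FPKM against 91.1, 67.5 and 88.4. Nlrc5, the class I transactivator, had a log2 difference of 0.57 (SE 0.35). The count hung on combination replicate 2, the lowest of its arm, since without it all 19 genes were separate (against 20.5% of all genes), whereas without any other tumor it was 7 to 10.

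The interferon gamma list holds GBPs, immunity-related GTPases and the receptor and signaling genes of the pathway. Of its 21 members tested, 20 had a higher mean with the combination and 11 did not overlap on the higher side, with a median of 1.08. The member lower without overlap was the kinase Jak1, at a log2 difference of -0.15. Without combination replicate 2 the higher count was 19, without anti-PD-1 replicate 1 it was 16, and without any other tumor it was 11. Gbp2 (chromosome 3, 142620602 to 142638008) was at 135, 41.2 and 149 FPKM with the combination and 35.0, 26.5 and 24.1 with anti-PD-1, a log2 difference of 1.73 (SE 0.44). Gbp4 was at 11.6, 2.23 and 8.65 FPKM against 1.85, 1.10 and 1.26. Iigp1, a GTPase that coats vacuoles of intracellular parasites, was at 49.4, 12.5 and 39.5 FPKM against 11.1, 6.91 and 7.28. Again replicate 2 was the lowest of the combination tumors and stood only a little above the anti-PD-1 arm. Irgm1, a regulator of these GTPases, was at 23.7, 12.3 and 22.1 FPKM against 12.2, 9.35 and 8.51. Socs1, the feedback inhibitor of the pathway, was at 9.72, 10.1 and 14.97 FPKM against 5.70, 7.43 and 5.71, and here replicate 2 was level with replicate 1. Irf1 overlapped, at 36.7, 15.5 and 30.4 FPKM against 17.7, 14.1 and 13.9. Without combination replicate 2, 14 genes passed the adjusted threshold in place of 1, 12 of them higher, and Gbp2, Gbp4, Tap1, H2-T22 and Irf1 were among these. Ifng itself was under the filter, at 1.91, 0.145 and 0.920 FPKM with the combination and 0.390, 0.102 and 0.0895 with anti-PD-1, from an estimated 76 fragments in all 6 tumors.

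Type I interferon-stimulated genes did not share this step. Of 24 tested, 3 were higher without overlap (among them Ifit2 and Bst2), 1 was lower (Oas2), and the median difference was 0.08. Without combination replicate 1 or 2 or anti-PD-1 replicate 1 the higher count was 5, 6 or 7. These are 20.8%, 25% and 29.2%, near the 18.6%, 20.5% and 29.3% of all genes in the same settings. Without anti-PD-1 replicate 2 the lower count was 3, or 12.5% against 11.9% of all genes. Isg15 (chromosome 4, 156199424 to 156200818), a ubiquitin-like antiviral protein, was at 63.2, 109 and 82.3 FPKM with the combination and 91.9, 78.7 and 65.0 with anti-PD-1. Ifit3 was at 21.1, 31.4 and 29.9 FPKM against 29.7, 30.1 and 17.9. In both, the arms overlapped throughout and combination replicate 2 was the highest of its arm, the reverse of its place for the GBPs. Oas2, which makes the activator of RNase L, was at 3.99, 8.91 and 5.43 FPKM with the combination and 9.89, 9.74 and 11.4 with anti-PD-1 (log2 difference -0.82, SE 0.28).

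Both interferon lists were searched for the same promoter element, the interferon-stimulated response element (letters GAAA, any 2 bases, then GAAA, on both strands of the 250 bases before the start). It is present in 10 of 16 interferon gamma list genes with a RefSeq promoter (62.5%) and in 9 of 17 type I genes (52.9%), against 3.46% of all genes. The lists therefore hold it about as often, although their levels differed between the arms to an unlike extent. A gamma-activated site (TTCNNNGAA, same search) is present in 8 of the 16 (50%) and in 8.13% of all genes. The type I list was not searched for this site, so that the lists cannot be compared by it. Windows of 110 bases are printed for Gbp2 (chr3:142620549-142620658, plus), Irgm1 (chr11:48871421-48871530, minus), Isg15 (chr4:156200830-156200939, minus) and Ifit3 (chr19:34583352-34583461, plus) of GRCm38.p6, with each response element in capitals, so that a pair from each list can be read side by side. In Irgm1 and Isg15 the capitals cover matches that overlap.
Gbp2: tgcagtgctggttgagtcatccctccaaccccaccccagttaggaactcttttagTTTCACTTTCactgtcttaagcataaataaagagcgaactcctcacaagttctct
Irgm1: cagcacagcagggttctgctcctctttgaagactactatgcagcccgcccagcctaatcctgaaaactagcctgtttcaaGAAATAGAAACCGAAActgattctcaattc
Isg15: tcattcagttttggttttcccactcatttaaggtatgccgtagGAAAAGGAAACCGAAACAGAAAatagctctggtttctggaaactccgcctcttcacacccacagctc
Ifit3: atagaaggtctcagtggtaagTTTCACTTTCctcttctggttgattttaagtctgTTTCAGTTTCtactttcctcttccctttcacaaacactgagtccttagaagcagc

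**Figure D2:**
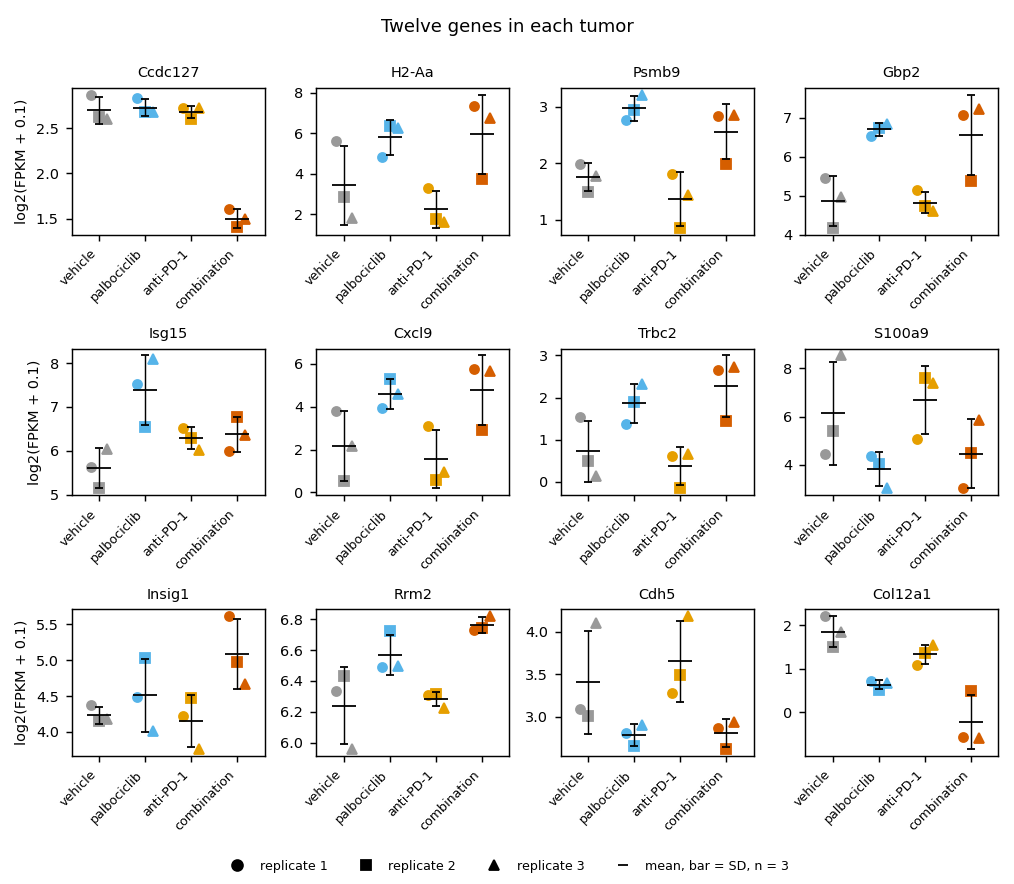
Level of 12 genes as log2(FPKM + 0.1) in each of the 12 tumors, by arm. Symbols mark the replicate, the black line the mean and the bar the SD (n = 3). The combination tumors lie apart from the other arms for Ccdc127, above anti-PD-1 for H2-Aa, Psmb9, Gbp2 and Trbc2, and among the anti-PD-1 tumors for Isg15.

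T cell transcripts were low in both arms. Of 20 genes of the T cell receptor complex and lineage, 10 reached the filter, and 5 of these 10 averaged under 1 FPKM with anti-PD-1, so that they were tested only because of their level with the combination. The list is therefore described over all 20, whatever their level. All 20 had a higher mean FPKM with the combination, and on the log2 scale 9 of the 10 tested did. Of the 20, 7 were separate (Cd3e, Cd3g, Cd8b1, Cd5, Cd6, Trac and Trbc2). This is 35.0% against 9.14% of the 21352 genes above 0 in any of the 6 tumors. Trbc2 (chromosome 6, 41546730 to 41548352), a constant segment of the receptor beta chain, was at 6.23, 2.61 and 6.51 FPKM with the combination and 1.43, 0.797 and 1.48 with anti-PD-1, a log2 difference of 1.90 (SE 0.44). Cd3g, a signaling chain of the receptor, was at 3.88, 1.31 and 4.48 FPKM against 1.06, 0.459 and 0.809. Cd8b1, which marks CD8 T cells, was at 2.53, 0.786 and 1.79 FPKM against 0.669, 0.207 and 0.582, from an estimated 163 fragments in all. In bulk RNA, more cells of a type and more RNA per cell cannot be told apart, and this holds for every cell type below. Of 9 cytotoxic effectors and NK receptors tested, 0 were without overlap in either direction, with a median of 0.50. By mean 5 were higher and 4 lower, with log2 differences from -0.40 to 2.90. Over all 20 in the files, 17 had a higher mean FPKM. Of these 20, 2 (10%) were higher without overlap, near the 9.14% of genes above 0 in any of the 6 tumors. Without combination replicate 2 the count was 4 higher of the 9 tested (44.4% against 20.5% of all genes) with a median of 0.94. Without anti-PD-1 replicate 1 it was 3 higher (33.3%, near the 29.3% of all genes) and 1 lower, and without combination replicate 3 the median was 0.11. Gzmb, the granzyme of activated killer cells, was at 41.9, 15.4 and 32.0 FPKM with the combination and 21.3, 33.8 and 31.7 with anti-PD-1. Prf1, which forms pores in target cells, was at 11.8, 5.16 and 10.8 FPKM against 6.18, 17.4 and 14.1. Both are among the 4 members lower by mean. Tnfrsf4, the single regulatory T cell gene tested, had a log2 difference of 0.59 with overlap, and Foxp3 was under the filter, at most 0.140 FPKM.

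Chemokines that draw T cells overlapped, 0 of 8 being separate, with a median of 0.70. This count too hung on single tumors, as 6 of 8 were higher without overlap when combination replicate 2 was left out (median 1.10) and 4 of 8 without anti-PD-1 replicate 1. Cxcl9, induced by interferon gamma, had the largest difference of the list (3.22, SE 0.96), at 54.0, 7.35 and 50.2 FPKM with the combination and 8.51, 1.41 and 1.82 with anti-PD-1. Combination replicate 2 lay below anti-PD-1 replicate 1, which is why the arms overlap. Cxcl10, which shares the receptor CXCR3, was at 17.2, 14.0 and 24.97 FPKM against 16.2, 16.8 and 10.2. Among 8 checkpoint receptors and ligands tested, 0 were higher without overlap and Tigit was lower, at 4.80, 5.99 and 4.42 FPKM with the combination and 7.43, 7.83 and 7.45 with anti-PD-1 (log2 difference -0.58, SE 0.17). Cd274, which encodes PD-L1, was at 18.4, 7.79 and 17.1 FPKM against 8.60, 9.05 and 8.96. None of 8 costimulatory genes and none of 10 leukocyte adhesion genes was separate, and their medians were 0.04 and 0.07. Without combination replicate 2, 4 of 10 adhesion genes were higher without overlap (40% against 20.5% of all genes, median 0.40). In the same setting 3 of 8 costimulatory and 3 of 8 checkpoint genes were higher (37.5% each), and 1 and 2 were lower. Over all 16 adhesion genes in the files, 2 (12.5%) were higher without overlap, against 9.14% of genes above 0 in any of the 6 tumors. Cd86, a ligand of CD28, had a log2 difference of 1.75 (SE 0.54), and Tnfrsf9, a receptor of activated T cells, one of -1.45 (SE 0.66). Icam1, the ligand of the leukocyte integrin LFA-1, was at 9.36, 2.52 and 8.55 FPKM against 4.13, 1.399 and 1.91 (1.36, SE 0.53), and again replicate 2 of the combination lay below anti-PD-1 replicate 1.

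Leukocyte markers were set beside these groups. The summed level of 8 pan-leukocyte markers was 187, 93.6 and 173 FPKM with the combination and 116, 73.8 and 74.3 with anti-PD-1. All 8 had a higher mean with the combination, with a median of 0.74, and 1 of 8, Arhgdib, was without overlap, a share (12.5%) like that of all genes. Without combination replicate 2 or anti-PD-1 replicate 1 it was 7 or 6 of 8. Within the combination arm, replicate 2 had the lowest mean of the class II, interferon gamma, T cell and leukocyte lists alike. The part of leukocyte content in these results was not tested. B cell markers were near the lower limit, with Cd79a alone of 8 tested, at a log2 difference of -0.20, and summed levels of 2.43 to 3.39 FPKM against 1.59 to 4.10.

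Myeloid genes went different ways. Of 17 macrophage markers tested, 14 had a higher mean with the combination (median 0.37) and Retnla alone was without overlap, which reached the filter only through the combination. The log2 differences of the list ran from -0.42 to 5.92. Without combination replicate 2, 7 of 17 were higher without overlap (41.2% against 20.5% of all genes). Without anti-PD-1 replicate 1 it was 10 of 17 (58.8% against 29.3%). C1qa, a complement component made by tissue macrophages, was at 303, 121 and 263 FPKM with the combination and 125, 31.0 and 32.6 with anti-PD-1 (log2 difference 2.09, SE 0.75). Retnla, a marker of alternative activation that adipose tissue also makes, was at 50.0, 16.3 and 0.722 FPKM against 0, 0.205 and 0, so that its level varied widely within the combination. Its order among the combination tumors was that of the adipocyte sum, and the part of fat in it was not tested. Of 5 dendritic cell markers tested, Cd83, found on mature dendritic cells, was higher without overlap, at 6.82, 2.47 and 6.33 FPKM against 1.63, 0.829 and 0.554. It was 4 of the 5 without combination replicate 2 or anti-PD-1 replicate 1.

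Neutrophil genes and ligands of CXCR2, the receptor that recruits neutrophils, had a lower mean with the combination in all 11 of the tested members, with a median of -1.62. Of these, 2 were separate, Cxcr2 and Mmp9, of which Cxcr2 reached the filter only through anti-PD-1. Over all 17 of the list in the files, 23.5% were lower without overlap, against 6.00% of the genes above 0 in any of the 6 tumors. Mmp9, a matrix protease stored in neutrophil granules, was at 0.823, 1.09 and 3.30 FPKM with the combination and 3.63, 4.85 and 5.52 with anti-PD-1 (log2 difference -1.60, SE 0.51). S100a9 (chromosome 3, 90692632 to 90695721), a calcium-binding alarmin, was at 8.06, 22.2 and 58.7 FPKM against 33.3, 197 and 168. Here anti-PD-1 replicate 1 lay among the combination tumors, and without it 10 of 11 were lower without overlap. Without combination replicate 3 it was 8, without anti-PD-1 replicate 2 it was 3, and without any other tumor it was 2.

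**Figure D3:**
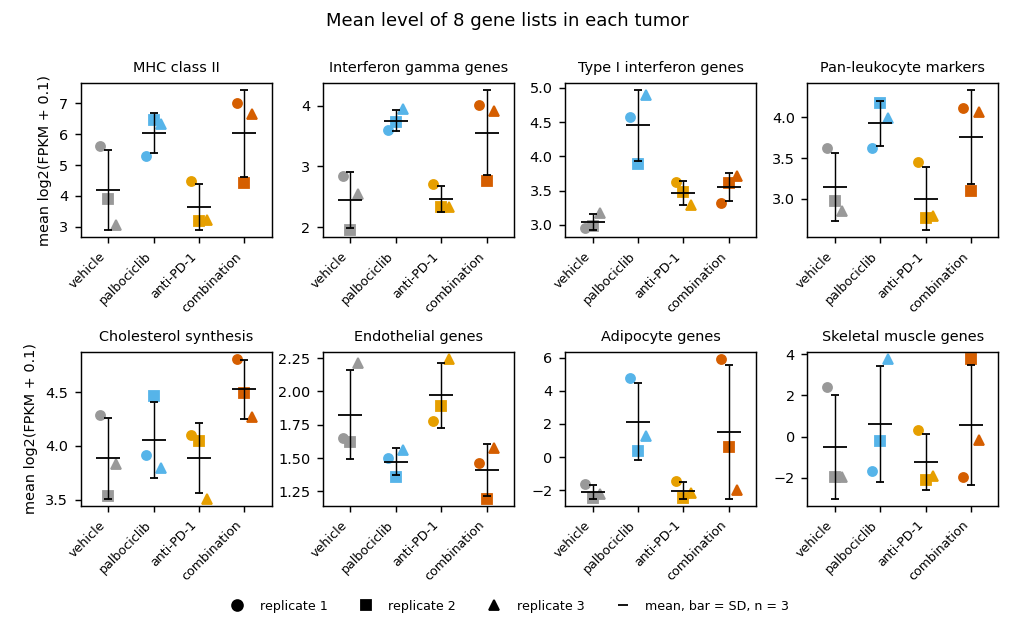
Mean log2(FPKM + 0.1) over the tested members of 8 gene lists in each of the 12 tumors, by arm. Symbols mark the replicate, the black line the mean and the bar the SD (n = 3). Combination replicate 2 is the lowest of its arm for class II, interferon gamma and leukocyte genes and the highest for muscle genes, and replicate 1 is the highest for adipocyte genes.

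Genes of fat and muscle were examined as signs of surrounding tissue. All 14 adipocyte genes in the files had a higher mean FPKM with the combination, of which Lpl and Car3 did not overlap. Of the 9 that reached the filter, 7 averaged under 1 FPKM with anti-PD-1, and without combination replicate 1 their median difference went from 3.37 to 0.998. Car3, a carbonic anhydrase abundant in fat and muscle, was at 251, 8.28 and 0.365 FPKM with the combination and 0.239, 0 and 0.0145 with anti-PD-1. Of 19 muscle genes, 18 had a higher mean FPKM as well and 2 were separate. Of the 12 that reached the filter, 10 averaged under 1 FPKM with anti-PD-1, and without combination replicate 2 their median went from 1.88 to 0.25. Their share in the other results was not tested. Counts without single tumors are given beside some of the lists only, so that a list without them may also hang on 1 tumor. Of 2 skin genes tested Sprr1a was separate (1.19), and none of 5 erythroid genes was.

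Genes of the cell cycle were examined because palbociclib acts on it. Of 33 E2F factors and S phase genes, 10 were higher (30.3%) and 0 lower without overlap, with a median of 0.18. Rrm2 (chromosome 12, 24708241 to 24714146), a subunit of ribonucleotide reductase, was at 106, 107 and 113 FPKM with the combination and 79.2, 79.4 and 74.8 with anti-PD-1, a log2 difference of 0.48 (SE 0.12). E2f1 was at 21.8, 22.1 and 21.7 FPKM against 17.6, 18.4 and 16.96. In both genes the tumors within an arm differed by little beside the gap between the arms. Gins1, part of the replicative helicase, was at 14.0, 15.2 and 13.4 FPKM against 11.97, 8.57 and 8.10. Tk1, which salvages thymidine, had a log2 difference of 0.47 (SE 0.14). All 26 genes of G2 and mitosis had a higher mean (median 0.27), 4 of them without overlap (Cdk1, Aurkb, Birc5 and Nusap1), a share of 15.4% that is near the background. Cdk1, the mitotic kinase, was at 47.0, 40.5 and 37.7 FPKM against 33.6, 31.4 and 31.8. Mki67, the proliferation marker, overlapped, at 65.1, 68.9 and 64.8 FPKM against 74.7, 43.3 and 52.2. Anti-PD-1 replicate 1 had the highest mean of both the S phase and the mitotic list among the 6 tumors. Without this tumor 25 of 33 S phase and 24 of 26 mitotic genes were higher without overlap, whereas without any other tumor the counts were 10 to 12 and 4 to 6.

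In the CDK4/6 and RB axis, 4 of 12 genes tested were higher without overlap and 0 lower: Ccnd2, Ccnd3, Cdkn2c and Cdkn2d. Ccnd3, a D-type cyclin that activates CDK4 and CDK6, was at 6.14, 6.41 and 6.35 FPKM with the combination and 6.03, 3.45 and 2.83 with anti-PD-1 (log2 difference 0.68, SE 0.23). Cdkn2d, which encodes the CDK4/6 inhibitor p19INK4d, was at 33.8, 38.3 and 31.8 FPKM against 23.1, 24.2 and 24.8 (0.52, SE 0.16). Ccnd3 thus cleared anti-PD-1 replicate 1 by a small margin and Cdkn2d by a wide one. Of 10 replication-dependent histone genes tested, Hist1h1c was separate above (0.64) and Hist1h4c below (-0.78), with a median of -0.33. Hist1h4c averaged under 1 FPKM with the combination and reached the filter only through anti-PD-1.

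Cholesterol synthesis genes were higher with the combination as a group. All 18 members had a higher mean with the combination, 10 without overlap, and the median was 0.68. The count was 16 without combination replicate 3 or anti-PD-1 replicate 1 and 10 to 11 without any other tumor. Insig1 (chromosome 5, 28071363 to 28078662), which holds the sterol sensor in the endoplasmic reticulum and is itself a target of SREBP, was at 49.0, 31.3 and 25.2 FPKM with the combination and 18.6, 22.1 and 13.5 with anti-PD-1, a log2 difference of 0.93 (SE 0.29). Hmgcs1, which makes HMG-CoA, was at 94.9, 69.7 and 54.1 FPKM against 45.8, 50.6 and 35.2 (0.71, SE 0.26). Replicate 1 was the highest and replicate 3 the lowest combination tumor in both, an order unlike that of the immune genes. Sqle, squalene epoxidase, was at 16.7, 13.1 and 12.9 FPKM against 8.54, 9.96 and 7.58. Srebf2, which encodes the transcription factor of the pathway, was at 51.0, 54.2 and 47.9 FPKM against 32.8, 46.3 and 32.9 (0.47, SE 0.16). Without combination replicate 1, the tumor rich in fat genes, the median was 0.52, and without anti-PD-1 replicate 3 it was 0.42.

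A sterol response element (letters TCACNCCAC, both strands, 250 bases before the start) is present in 1 of 12 members with a RefSeq promoter, Hmgcs1, and in 1.22% of all genes. Its window is shown with the element in capitals (chr13:119690159-119690268, plus strand, GRCm38.p6), since it is the example in which the known element could be read.
Hmgcs1: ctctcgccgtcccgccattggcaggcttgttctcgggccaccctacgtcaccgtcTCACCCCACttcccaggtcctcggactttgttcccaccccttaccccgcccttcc

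Among lists with at least 8 genes tested, the endothelial list had the largest share on the lower side. Of 12 tested, 6 were lower without overlap (Pecam1, Cdh5, Tie1, Flt1, Adgrf5 and Ednrb) and 0 higher, with a median of -0.63. These are also 6 of all 16 in the files (37.5%), and the count was 9 without combination replicate 3 and 6 to 7 without any other tumor. Cdh5 (chromosome 8, 104101625 to 104144511), the cadherin of endothelial junctions, was at 7.21, 6.07 and 7.59 FPKM with the combination and 9.63, 11.1 and 18.1 with anti-PD-1, a log2 difference of -0.84 (SE 0.29). Flt1, a VEGF receptor, was at 0.759, 0.737 and 0.849 FPKM against 1.36, 1.67 and 2.58, so that it reached the filter only through anti-PD-1. Ednrb, an endothelin receptor, was at 1.20, 1.14 and 0.923 FPKM against 1.79, 1.58 and 2.10. The combination tumors were close to each other in all 3 genes, whereas anti-PD-1 replicate 3 was the highest of the 6. Ece1, the enzyme that activates endothelin, was among the 15 genes with the smallest p on the lower side, at 4.09, 4.34 and 3.86 FPKM against 7.398, 5.51 and 7.37 (-0.70, SE 0.13, limma adjusted p = 0.310). Kdr, another VEGF receptor, was at 1.47, 0.858 and 0.973 FPKM against 1.32, 0.947 and 1.44, so that endothelial members were not all alike. Of 21 hypoxia and glycolysis genes, 0 were lower and Pfkfb4 was higher without overlap (median -0.18). Without anti-PD-1 replicate 1, 14 of 21 were lower without overlap and the median was -0.46, and without any other tumor 0 to 1 were. Vegfa, the ligand, was at 6.17, 6.23 and 5.29 FPKM against 5.51, 20.05 and 17.3, and anti-PD-1 replicate 1 again lay with the combination.

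Fibroblast and collagen genes showed no common direction, with 2 of 21 lower without overlap, 0 higher and a median of 0.01. These were Pdgfrb and Col12a1 (chromosome 9, 79598991 to 79718831), a collagen that decorates fibrils. Col12a1 was at 0.575, 1.30 and 0.562 FPKM with the combination and 2.04, 2.47 and 2.81 with anti-PD-1 (log2 difference -1.56, SE 0.29). It averaged 0.814 FPKM with the combination, so that it reached the filter only through anti-PD-1. Over all 23 of the list in the files, 8.70% were lower without overlap, against 6.00% of the genes above 0 in any of the 6 tumors. Of 12 YAP-TEAD targets, 3 were lower without overlap (Ctgf, Axl and Tead4; median -0.25), and 9 were without combination replicate 2. Ctgf, a matricellular protein, was at 0.617, 1.005 and 0.843 FPKM against 1.27, 2.91 and 6.81. It averaged 0.822 FPKM with the combination and likewise reached the filter only through anti-PD-1. Senescence-associated secretory genes had 3 of 15 lower without overlap (among them Igfbp3 and Igfbp7; median -0.42). It was 8 without combination replicate 3, and 7 or 5 without anti-PD-1 replicate 1 or 2. Igfbp3, which binds insulin-like growth factors, was at 6.82, 12.7 and 12.8 FPKM against 18.4, 49.2 and 61.1 (-1.87, SE 0.51). Snai1, a repressor of epithelial genes, was at 9.94, 14.2 and 12.2 FPKM against 16.5, 23.7 and 20.1 (-0.73, SE 0.15). In each of these genes anti-PD-1 replicate 1 was the lowest of its arm and still lay above all combination tumors.

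Among the remaining lists, circadian genes had 3 of 11 lower without overlap, Per1, Nr1d1 and Nr1d2 (median -0.40). Per1, a clock repressor, was at 4.72, 7.95 and 8.17 FPKM with the combination and 13.2, 24.4 and 19.4 with anti-PD-1 (log2 difference -1.44, SE 0.40). Of 12 RAS-MAPK feedback genes, Dusp6 and Fosl1 were lower without overlap (median -0.31), and none of 7 immediate early genes was separate (median -0.37). Of 18 genes of the LKB1 complex and AMPK, Prkab1 and Nuak1 were higher and Strada and Sik1 lower without overlap (median -0.01). Sik1, a kinase activated by LKB1, was at 4.10, 5.94 and 5.40 FPKM against 6.16, 14.9 and 17.3. Of 11 NRF2 targets, G6pdx was higher and Gclc and Gclm lower, and of 17 ATF4 and unfolded protein response genes Chac1 and Trib3 were lower. Of 11 genes of cGAS-STING and retroviral sensing Tbk1 was lower, and of 19 lysosome genes Npc2 was higher and Mcoln1 lower. Without combination replicate 2, 4 of these 11 and 9 of these 19 were higher without overlap (36.4% and 47.4% against 20.5% of all genes). Without anti-PD-1 replicate 1 it was 5 and 10 (45.5% and 52.6% against 29.3%). Oxidative phosphorylation had 7 of 23 higher without overlap, with a median of 0.14, the largest being Cox6c at 0.38, and 12 or 13 were without combination replicate 3 or anti-PD-1 replicate 1. Krt8, a keratin of carcinoma cells, was lower without overlap, at 62.0, 95.1 and 97.7 FPKM against 276, 121 and 129. Xist, the sex-linked gene tested, differed by 0.47 with overlap.

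Outside of the lists, the genes with the smallest p among those without overlap had an adjusted p of 0.285 to 0.310 (limma) and did not pass. On the higher side these included Gm4841, a gene of the interferon-inducible GTPase family, at 2.55, 1.72 and 2.59 FPKM with the combination and 0.202, 0.173 and 0.114 with anti-PD-1 (log2 difference 3.17, SE 0.50). Gm4841 averaged 0.163 FPKM with anti-PD-1 and reached the filter only through the combination. H2-T22, a non-classical class I gene, was at 32.5, 23.2 and 28.7 FPKM against 17.5, 16.4 and 13.6. Dkk2, a secreted modulator of Wnt signaling, was at 10.6, 5.36 and 6.25 FPKM against 1.37, 3.04 and 2.77 (1.60, SE 0.34). Acyp2, an acylphosphatase, was at 10.4, 10.3 and 9.94 FPKM against 5.87, 5.18 and 4.63, and here the spread within the combination was small. Gng2, a G protein gamma subunit, had a log2 difference of 0.75 (SE 0.15). The others on this side were Fam96a, Pnrc2, Cfap97, Commd10, Tgif2, Tcf19, Scand1 and Sub1, besides Tapbp and Retnla above. On the lower side, Ackr3, a scavenger receptor for CXCL12, was at 2.16, 2.37 and 0.854 FPKM with the combination and 5.65, 6.87 and 7.16 with anti-PD-1 (-1.92, SE 0.34). Inhbb and Fstl3, a subunit of activin B and an activin-binding protein, were both lower, Inhbb at 1.14, 1.27 and 1.29 FPKM against 2.54, 3.92 and 6.19. Pisd-ps1, Safb2, Slc48a1, Atp2c2, Rabggtb, Tmem201 and Arntl2 were also on this side.

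Next, the same drug without anti-PD-1 was set beside these values, in palbociclib and vehicle tumors that share no tumor with the comparison above. Over the same 11105 genes, 23 were called higher (0.207%) and 1 lower (0.009%) with palbociclib than with vehicle, and 1462 (13.2%) and 808 (7.28%) were higher and lower without overlap. Across genes, which are not independent replicates, the log2 differences of both comparisons had a Pearson r of 0.632 and a Spearman rho of 0.424. Adipocyte genes summed to 535, 25.8 and 51.2 FPKM with palbociclib and 6.06, 2.83 and 5.63 with vehicle. Muscle genes summed to 37.8, 44.5 and 273 FPKM against 114, 32.3 and 39.4, and skin genes to 566 FPKM in palbociclib replicate 2. The part of these tissues in the correlations was not tested. Of the 1433 genes higher without overlap with anti-PD-1, 236 (16.5%) were so without it, and they are 16.1% of the genes higher with palbociclib. Of the 871 lower genes, 107 (12.3%) were so without anti-PD-1, which is 13.2% of the genes lower with palbociclib. A further 31 and 25 genes were separate in opposite directions.

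**Figure D4:**
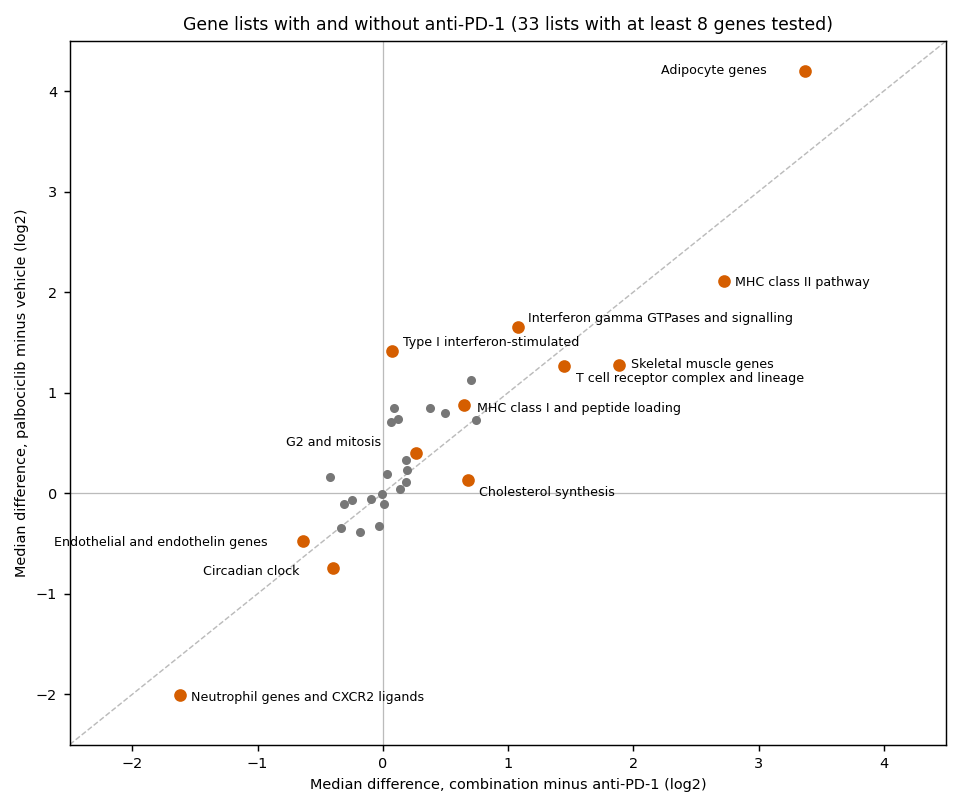
Median log2 difference of each gene list for combination minus anti-PD-1 (horizontal) and palbociclib minus vehicle (vertical), for the 33 lists with at least 8 genes tested. The dashed line marks equal differences. Type I interferon genes lie above it, at 0.08 and 1.41, and cholesterol synthesis genes below it, at 0.68 and 0.13. The T cell, adipocyte and muscle lists hold genes that reached the filter only through the combination.

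Several groups had a like median with and without anti-PD-1. For class II genes the medians were 2.72 with anti-PD-1 and 2.11 without, for class I genes 0.65 and 0.88, and for the neutrophil list -1.62 and -2.01. H2-Aa was at 27.8, 80.9 and 76.8 FPKM with palbociclib alone and 48.5, 7.16 and 3.41 with vehicle, so that vehicle replicate 1 overlapped. Endothelial genes had medians of -0.63 and -0.47, and 3 of 12 were lower without overlap with palbociclib alone. Cell cycle genes were on the same side, with medians of 0.33 for S phase (21 of 33 higher without overlap) and 0.40 for mitosis (15 of 26).

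The type I interferon list had a larger median without anti-PD-1. Without anti-PD-1, 23 of its 24 genes were higher without overlap with palbociclib (median 1.41), and 6 of 24 passed the adjusted threshold, against 3 separate genes and a median of 0.08 with anti-PD-1. Isg15 was at 182, 92.5 and 274 FPKM with palbociclib and 49.5, 35.2 and 65.8 with vehicle. The interaction, which tests the difference between both differences in 1 model, passed adjustment in 2 of all genes (0.018%) and had an unadjusted p under 0.05 in 672 (6.05%). In this list it had an unadjusted p under 0.05 and a negative sign in 20 of 24 genes, against 3.41% of all genes. The cGAS-STING list, which shares Ddx58 and Ifih1 with it, was alike, with medians of 0.85 without anti-PD-1 and 0.09 with it. Of its 11 genes, 6 were higher without overlap with palbociclib alone, 2 passed the adjusted threshold (Tlr3 and Ifih1), and 6 had a negative interaction at an unadjusted p under 0.05. Ifih1, a sensor of double-stranded RNA, was at 3.67, 3.14 and 4.13 FPKM with palbociclib and 1.34, 1.38 and 1.26 with vehicle. By contrast, 1 of 21 interferon gamma list genes, 0 of 8 class II genes and 0 of 19 class I genes did. None of these passed adjustment, and the limma adjusted p for the interaction was 0.788 for Isg15 and 0.745 for Ifit3. The cholesterol list differed the opposite way, with a median of 0.13 and 0 of 18 without overlap for palbociclib alone. For Hmgcs1 the levels were 49.2, 68.7 and 36.6 FPKM with palbociclib and 63.1, 44.7 and 46.5 with vehicle. However, the interaction had an unadjusted p under 0.05 in 1 of its 18 genes only, Srebf2 (0.69), which did not pass adjustment. Over all genes this share was 6.05%, so that a difference between both settings was not shown for this list.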

How the data were processed

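RNA of 12 tumors (3 per arm) was sequenced from total RNA on an Illumina platform. The authors deposited 1 table of FPKM per tumor with 34745 entries, and the submitters' processing notes name HISAT2 and GRCm38 (mm10). The counting tool, the annotation and any scaling between tumors are not given in the sources used here. For symbols with several entries the one with the highest mean was kept, which removed 67. Log2(FPKM + 0.1) was fitted over all 12 tumors with limma 3.58.1 in R 4.3.3 (1 mean per arm, eBayes with a trend, Benjamini-Hochberg adjustment, threshold 0.05). Adding 0.1 understates differences of low genes. Genes needed a mean of at least 1 FPKM over the 6 tumors compared, which a gene high in 1 arm alone can reach. The fit was tested on simulated data. Named genes are the members of 41 gene lists, the 15 genes per direction with the largest change among those passing and without overlap (filled by smallest p), the 5 with the smallest interaction p, and genes behind counts of 5 or fewer. Values of some named genes are not reported here. The members and lists were chosen with earlier results of these data known. Groups and replicates come from the sample labels, which do not say more of how tumors were taken, so p-values measure the spread between these samples. Samples sharing a replicate number did not deviate together in all pairs of combination and anti-PD-1 (correlations 0.132, 0.134 and 0.0387) and were negatively correlated between palbociclib and vehicle, so the numbers were not taken to pair tumors, although anti-PD-1 and vehicle had 0.517, 0.169 and 0.299. Positions are from GENCODE M21 and promoters from RefSeq (GRCm38.p6). Alternatives were pseudocounts of 1 and 0.01, other filters, TPM, quantile normalization, no trend, sample quality weights, only the arms compared, a replicate block and leaving out each tumor.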

Additional observations from a re-analysis of the deposited data

Results flagged for a closer look

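The difference made by palbociclib differed with anti-PD-1 in 2 of 11105 genes (0.018%, limma interaction with Benjamini-Hochberg adjustment), and 672 genes had an unadjusted p under 0.05. For Ccdc127 the interaction was -1.21 on the log2 scale (SE 0.15, limma adjusted p = 0.0302), as only the 3 combination tumors were low. For Lgals3bp, a secreted glycoprotein that interferon induces, it was -1.90 (SE 0.22, limma adjusted p = 0.0302). Lgals3bp rose from 19.3, 22.7 and 25.7 FPKM with vehicle to 92.2, 64.5 and 85.2 with palbociclib (1.83, limma adjusted p = 0.00199), while it was at 48.4, 43.5 and 46.6 with anti-PD-1 and 37.4, 44.6 and 50.4 with the combination. The next genes by p, which did not pass, were Oas2 (-2.29), Gm20559 (-1.16) and Oasl2 (-1.50). Over the fits that left out 1 tumor each, the count was 2 without palbociclib replicate 2, 1 without vehicle replicate 1 and 0 in the others. With a replicate block it was 0.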

How the results depend on the processing

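The 1 gene called between combination and anti-PD-1 became 2 with no filter, 0 with only the 6 tumors compared and 1273 with sample quality weights (885 of them higher), and it was 1 to 14 over fits that left out 1 tumor each. The weight of anti-PD-1 replicate 1 was 0.263, the lowest of the 12. Without combination replicate 2 the count was 14, and without combination replicate 3 or anti-PD-1 replicate 1 it was 2. The 2 genes of the interaction became 1 with a filter at 0.1 FPKM and 1 with quality weights, and 0 to 2 over the fits that left out 1 tumor each. Palbociclib minus vehicle called 0.216% of genes, which became 0.00937% with no filter, 0.396% with TPM, 3.23% with quality weights and 0.018% with only these arms. Leaving out 1 tumor each gave 0.009% (without palbociclib replicate 1 or 3 or vehicle replicate 2) to 0.504% (without palbociclib replicate 2). With a replicate block, 1 gene was called for combination minus anti-PD-1, 0 for the interaction and 0.459% for palbociclib minus vehicle. The cause was not tested.

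Signs of small log2 differences between combination and anti-PD-1 turned in some fits. Over the fits without 1 tumor, Isg15 ran from -0.11 to 0.29, Ifit3 from -0.15 to 0.28, Gzmb from -0.35 to 0.37, Lgals3bp from -0.17 to 0.040, Gm20559 from -0.10 to 0.059 and Oasl2 from -0.077 to 0.049. Quality weights gave 0.029 for Lgals3bp and 0.034 for Oasl2. The other genes computed under these alternatives kept their sign. Counts of separate genes without single tumors were chosen after seeing the data. With FPKM and no counts, the counting error of genes near 1 FPKM is known only by estimate.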
